A study of Mus musculus with 8 samples.

Results

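The cells described here were basophil and mast-type cells of the mouse tibia, taken from a single-cell RNA sequencing matrix of 12564 barcodes. A barcode was a member when it had at least 700 detected genes, at most 20% of its unique molecular identifiers (UMIs, each standing for 1 captured transcript) from mitochondrial genes, and transcripts of the granule genes of these cells. The last condition was met by at least 5 UMIs of Mcpt8 and Prss34 together, or by at least 3 UMIs of Cpa3 with at least 1 of Ms4a2. In all, 65 of the 9705 barcodes past the gene and mitochondrial filter were members, a share of 0.670% (exact binomial 95% interval 0.517 to 0.853%). They were set against the 6729 other barcodes of the same filter that held at least 1 UMI of Ptprc, the gene of the pan-leukocyte antigen CD45.

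The study collected cells of the tibia at 8 weeks of age, postnatal day 56, to follow the descendants of hypertrophic chondrocytes. Every mouse carried 1 floxed allele of Mmp14 (MMP14 F/+), COL10A1cre, the R26-tdT reporter and Col1a1-2.3-GFP, with no treatment, so there was no control genotype. The Cre is driven by the hypertrophic chondrocyte gene Col10a1, the tdTomato reporter is switched on by Cre, and the GFP is under an osteoblast promoter. Cells of 3 mice were pooled, and the 8 labelled samples are of 1 group and share 1 matrix in which no barcode is tied to a sample or mouse. The whole matrix was therefore treated as 1 sample: no comparison below has a test, and every interval is a 95% interval that covers counting error only. The labels name the cells chondro-osteogenic, which the members go against, as they are blood cells by their genes. Per the study's methods, the digests that held most blood cells were discarded and the collected digest was enriched for tdTomato, so the share of members is not their share in marrow.

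Basophils and mast cells are granulocytes of allergy and of defence against parasites. Both carry the high-affinity receptor for IgE on their surface, and cross-linking of bound IgE releases histamine, proteases, lipid mediators and cytokines such as IL-4 and IL-13. Basophils mature in the bone marrow and leave it for the blood, whereas mast cells leave it as progenitors and mature in tissues, where they keep the stem cell factor receptor KIT and fill their granules with chymases and tryptases.

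The rule was met along both of its conditions by 38 members, by Mcpt8 and Prss34 alone by 22 and by Cpa3 with Ms4a2 alone by 5. The members held between 1838 and 35218 UMIs (median 9304) and between 941 and 5542 detected genes (median 2568). Mitochondrial genes gave 1.41 to 9.30% of a member's UMIs, with a median of 3.05%. The other Ptprc barcodes had a median of 5323 UMIs. The Cd79a and Cd79b barcodes of the B lineage, used below as cells that should lack these genes, had a median of 3078. The sets overlap, as 2304 of the 3499 B-lineage barcodes held Ptprc and also belong to the other Ptprc barcodes. The study's own gene floor of 1600 was passed by 50 of the 65 members, but the study also left out clusters that expressed Ptprc. A Ptprc UMI was found in 45 members and in none of the other 20, whose median depth was 4578 UMIs.

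Transcripts of neutrophils, red cells or skeletal cells stood out in 8 members. Neutrophil granule genes (S100a8, S100a9, Camp, Ltf and Ngp) gave 259 to 6642 UMIs in 4 of them, globin genes gave 3050 to 7622 UMIs in 3, and cartilage or bone collagen and aggrecan genes gave 65 and 189 UMIs in 2, with 1 barcode counted under both the first and the last heading. Scrublet, which scores each barcode against simulated mixtures of pairs, called 3 of the 65 members doublets, all among these 8, and 413 of the 9705 filtered barcodes. These 8 members were kept, and values without them are given where they matter. They alone are meant below by members that held UMIs of other cell types. B-lineage genes were not part of this count. Cd79a had 9 UMIs in a member of 21722 UMIs, and 7 and 5 in members of 10640 and 14169 UMIs.

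Mcpt8 encodes a granule protease that marks basophils, and its UMIs ranged from 0 to 484 in a member with a median of 66. Prss34, which encodes a serine protease also known as mMCP-11, ranged from 0 to 951 UMIs with a median of 138. Cpa3, mast cell carboxypeptidase A, ranged from 0 to 89 (median 10), and Ms4a2, the beta chain of the IgE receptor, from 0 to 27 (median 3). These values chose the members and are a description only. In counts scaled to 1000000 UMIs of the group (CPM), Mcpt8 stood at 11444 in the members and 2.58 in the other Ptprc barcodes, Prss34 at 20294 and 0.871, Cpa3 at 1522 and 2.08, and Ms4a2 at 436 and 0.473. Of the 65 members, 63 held Mcpt8, 53 Prss34, 58 Cpa3 and 57 Ms4a2.

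Some members lay near the threshold. Just outside it, 6 filtered barcodes had 3 UMIs of Mcpt8 and Prss34 together and 8 had 4, and just inside it 3 members had 5, 2 had 6, 2 had 7, 5 had 9, 1 had 10 and 1 had 11. At a threshold of 3 UMIs the members would number 79, and at 20 UMIs 51. No UMI of either gene was found in 9454 filtered barcodes that were not members, and 151 had exactly 1. On the other condition, 11 barcodes had at least 3 Cpa3 UMIs but none of Ms4a2, and 13 had 1 or 2 Cpa3 UMIs with Ms4a2. Only 1 further barcode met the rule below the gene floor, and 0 met it above the mitochondrial limit.

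**Figure D1:**
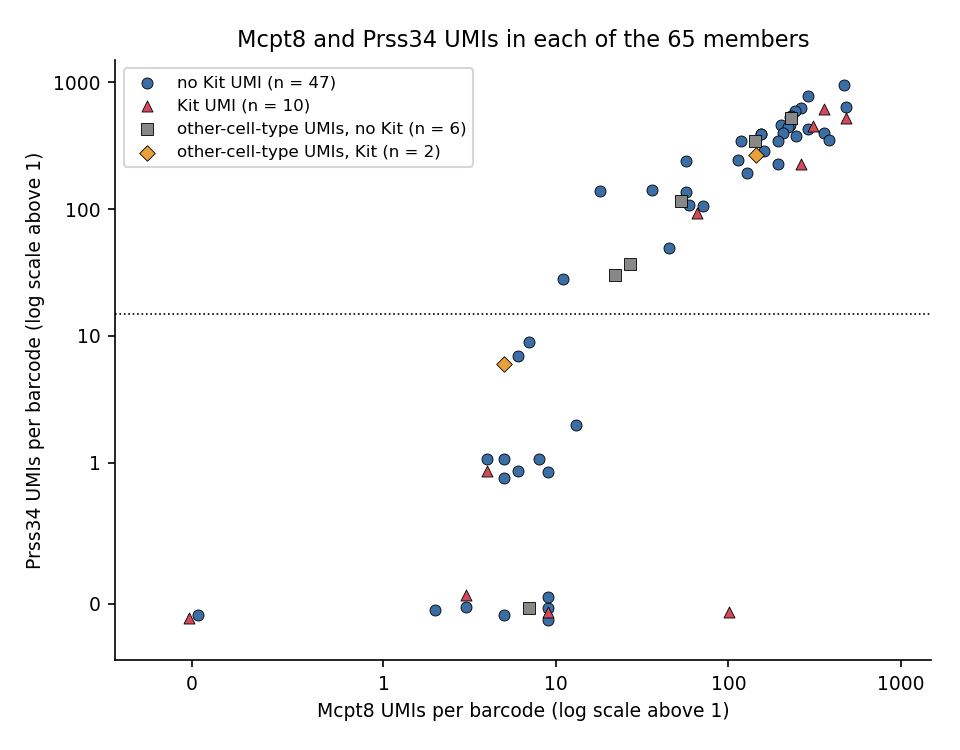
Mcpt8 UMIs (horizontal axis) against Prss34 UMIs (vertical axis) in each of the 65 members, on symmetric log axes, with points near 0 and 1 shifted slightly to part overlaps; symbols mark members with and without Kit UMIs and the 8 with UMIs of other cell types, and the dotted line lies at 15 Prss34 UMIs. A gap separates 42 members with 28 or more Prss34 UMIs from 23 with 9 or fewer.

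Promoters were searched for a GATA motif because the gene of the transcription factor GATA2 was among those highest in the members relative to the comparison. GATA factors bind the letters GATA, most often with an A or T before them and an A after them. The 4 promoters shown all held the motif. Mcpt8, which also chose the members, held 0 matches and is not shown. The sequences are the 250 bases before the RefSeq start site (GRCm38.p6), read 5′ to 3′ on the strand of the gene, and capitals mark AGATAA or TGATAA, or the same motif on the other strand (TTATCT or TTATCA). Prss34 lies at chr17:25298144-25298393 on the plus strand, Cpa3 at chr3:20242182-20242431 on the minus strand, Ms4a2 at chr19:11623720-11623969 on the minus strand, and Cd200r3, which encodes an activating receptor of basophils and mast cells, at chr16:44943428-44943677 on the plus strand.
Prss34: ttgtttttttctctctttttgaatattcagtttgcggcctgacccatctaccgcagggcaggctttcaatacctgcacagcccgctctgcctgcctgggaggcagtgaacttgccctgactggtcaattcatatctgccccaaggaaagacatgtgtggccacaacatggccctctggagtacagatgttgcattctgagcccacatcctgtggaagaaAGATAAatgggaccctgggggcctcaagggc
Cpa3: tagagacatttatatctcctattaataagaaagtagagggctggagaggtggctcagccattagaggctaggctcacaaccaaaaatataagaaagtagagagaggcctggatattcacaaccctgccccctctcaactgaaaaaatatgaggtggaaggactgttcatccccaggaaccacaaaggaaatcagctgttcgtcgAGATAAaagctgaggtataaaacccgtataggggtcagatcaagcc
Ms4a2: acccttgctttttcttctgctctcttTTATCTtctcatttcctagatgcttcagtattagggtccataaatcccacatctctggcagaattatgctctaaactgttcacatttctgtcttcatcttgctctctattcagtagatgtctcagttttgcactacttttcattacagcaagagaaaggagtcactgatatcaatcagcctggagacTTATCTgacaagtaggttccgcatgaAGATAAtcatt
Cd200r3: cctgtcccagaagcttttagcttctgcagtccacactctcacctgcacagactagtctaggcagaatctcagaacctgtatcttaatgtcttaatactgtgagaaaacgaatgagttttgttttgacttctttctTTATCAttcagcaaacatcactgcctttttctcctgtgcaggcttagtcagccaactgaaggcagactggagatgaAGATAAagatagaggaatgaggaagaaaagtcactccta
The single match of Prss34 began 31 bases before the start and that of Cpa3 46 bases before it. Ms4a2 held 3 matches and Cd200r3 held 2. At least 1 match was present in 16.6% of 32851 RefSeq promoter windows of the same length and at least 2 in 2.72%. AGATAA alone occurred in 9.99% and TGATAA alone in 7.94%. Of 11 genes looked up, all of which had a RefSeq window, Fcer1a and Slc18a2 held 1 match each and Mcpt8, Gata2, Hdc, Cyp11a1 and Gzmb held 0. A match says only that these letters are in the window, and binding was not measured.

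Across 6086 genes with at least 20 CPM in either group, 242 (3.98%) were called higher in the members and 273 (4.49%) lower. A call here means a ratio of at least 4 with its whole counting interval beyond 2, and the median log2 ratio of all genes past the floor was 0.06. Since the barcodes were chosen by their own transcripts, these calls describe the members and test nothing. After Prss34 and Mcpt8, the highest ratio was that of Fcer1a, the IgE-binding alpha chain, at 318 CPM in the members and 0.227 in the others (log2 ratio 10.45, interval 9.62 to 11.43). Cyp11a1, which makes pregnenolone from cholesterol, stood at 802 against 2.20 CPM and was found in 60 of 65 members. Further genes among the 20 highest were Htr1b, a serotonin receptor (log2 ratio 9.45), Alox15, a lipoxygenase (9.03), Csrp3, a LIM protein known from muscle (8.70), Grm6, a glutamate receptor (8.48), Fgf3, a fibroblast growth factor (8.20), the prostaglandin F receptor gene Ptgfr (7.05), and Cdh1, which encodes E-cadherin (6.96). The unnamed transcript 5730460C07Rik also belonged to them (8.28). Prg2, next after Fcer1a (10.32), had 98.9% of its UMIs in 1 member. No limit on single barcodes was set in this comparison, so a call can rest on 1 of them. Csrp3 had a UMI in 44 members and Cdh1 in 46, whereas Htr1b, Fgf3 and Ptgfr were each found in 16.

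The 10 lowest ratios included genes of osteoblasts, plasma cells, antigen presentation and B cells. Bglap and Bglap2, near-identical copies of the osteocalcin gene whose reads may be split between them, had 1 UMI each in the members against 420 and 202 CPM in the others. Jchain, the joining chain of antibodies, also had 1 UMI. The class II genes H2-Aa and H2-Eb1 had 3 UMIs each and the invariant chain gene Cd74 had 10, against 338, 237 and 917 CPM in the others. Ibsp, Vpreb1 and Slfn4 had 2, 1 and 1. Ccl5 had 0, which puts its log2 ratio at -5.42 or lower when the members are set to the floor of 3 UMIs. In the others Bglap, Bglap2, Jchain, Ibsp, Vpreb1 and Ccl5 were found in only 4.35, 2.27, 3.37, 2.26, 5.14 and 4.95% of barcodes. The members' shares were 1.54% for Bglap, Bglap2, Jchain and Vpreb1, 3.08% for Ibsp and 0 for Ccl5. Cd74, Slfn4, H2-Aa and H2-Eb1 were found in 38.3, 23.5, 22.9 and 19.1% of the others and 15.4, 1.54, 4.62 and 4.62% of members.

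Among 12 basophil markers, all 12 were called higher, including the 4 that chose the members. Gata2, a transcription factor of basophils and mast cells, had a median of 13 UMIs and a highest value of 48 in a member and was found in 63 of 65, against 1.20% of other Ptprc and 0.486% of B-lineage barcodes. Cd200r3 was found in 59 members, against 0.327% and 0.143%. When barcodes were thinned to 1500 UMIs, with 34 shallower ones left out of the other Ptprc and 34 out of the B-lineage barcodes, Gata2 was found in 79.2% of members and 0.378% of the others, and Cd200r3 in 57.9% and 0.170%. The smallest ratios of this list belonged to Hdc (log2 ratio 2.33) and Il3ra (2.83), and Itga2, the CD49b antigen, was found in 15 members (4.11).

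Mast cell markers were largely missing. Of 12 genes, 8 were at 0 UMIs in all 65 members: the tryptases Tpsb2 and Tpsab1, the chymases Mcpt1, Mcpt2, Mcpt4 and Mcpt9, and the receptors Mrgprb1 and Mrgprb2. The 95% upper limit of a count of 0 in the members is 5.13 CPM, and the floor of 3 UMIs set for such genes in ratios makes 4.17 CPM. The 3 genes of this list past the CPM floor were called higher: Gzmb, Kit and Cma1. Gzmb was found in 46 members and Kit in 12, but all 19 UMIs of Cma1 lay in 1 member. Mitf, a transcription factor of mast cells, had 2 UMIs, both in that same member. Of the 12 basophil markers, the 8 that did not choose the members were also called higher over the group, but single members lacked them, as described below. For the name mast-type, Gzmb and Kit were present, while the tryptases were at 0 and a chymase was found in 1 barcode. Gzmb was found in 39 of 53 members without Kit and in 7 of 12 with it, so it did not mark a separate kind. Kit, Cma1 and Mitf occurred together only in that 1 barcode. Below, the group is called the members.

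**Figure D2:**
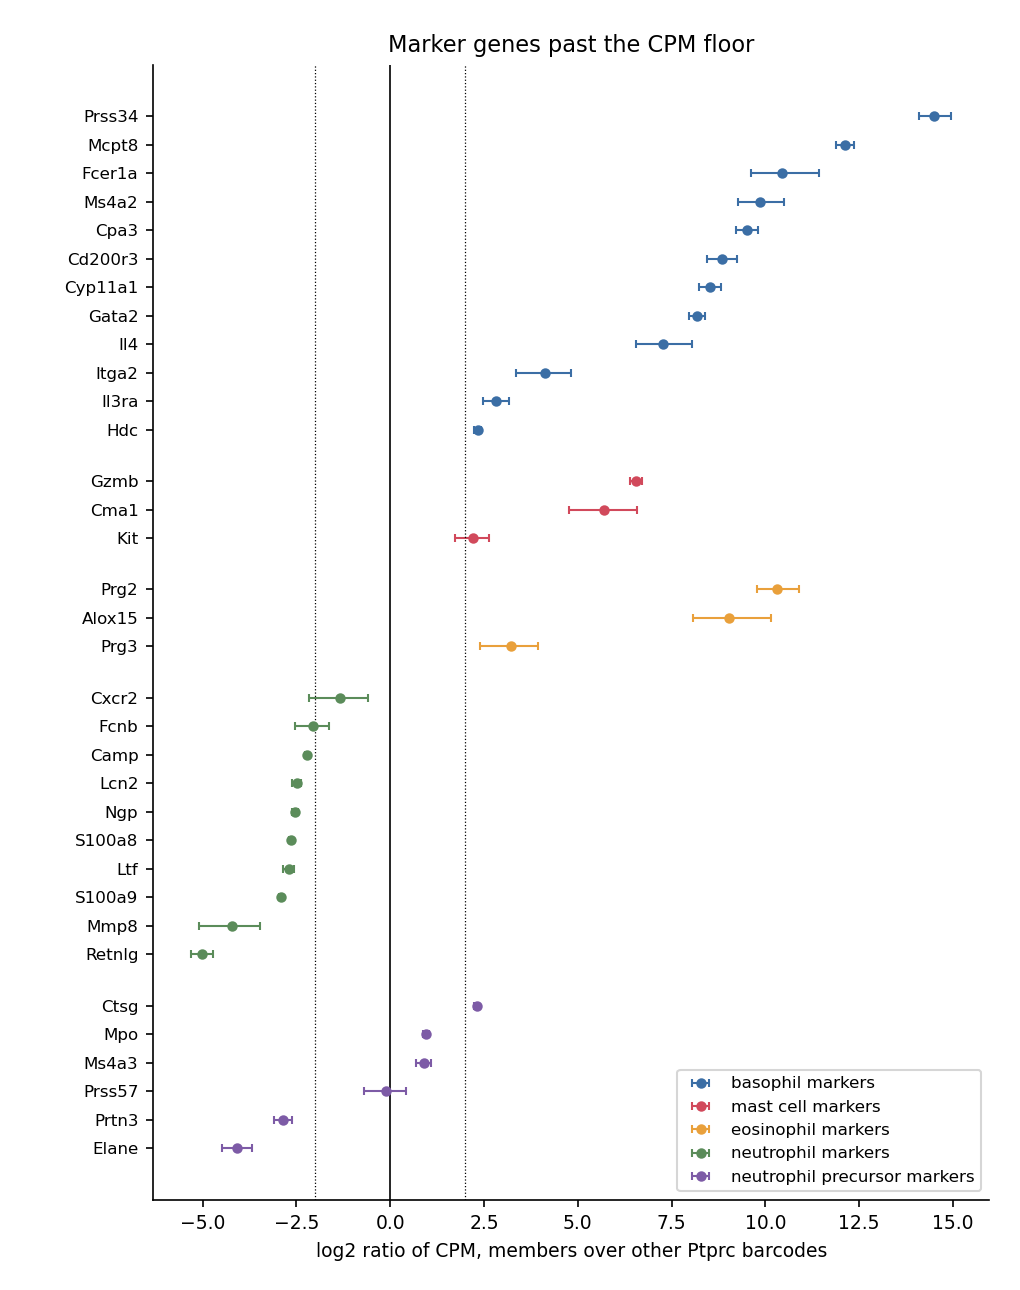
Log2 ratio of CPM, members over other Ptprc barcodes (horizontal axis), for the genes past 20 CPM of the basophil, mast cell, eosinophil, neutrophil and neutrophil precursor marker lists; bars are 95% counting intervals and dotted lines mark a ratio of 4 in either direction. The 12 basophil markers lie above the upper line, and 9 of 10 neutrophil markers lie below the lower one.

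Markers of other blood and bone cells were mostly lower or not called. Of 10 neutrophil markers, 9 were called lower, with a summed level of 20129 CPM in the members that was 753 CPM without the 8 members named above, against 130914 CPM in the other Ptprc barcodes. Of 6 neutrophil precursor markers, Ctsg, the cathepsin G gene, was called higher (2282 against 460 CPM, found in 52 members), Elane and Prtn3 were called lower (log2 ratios of -4.08 and -2.86), and Mpo, Ms4a3 and Prss57 passed neither limit (0.96, 0.90 and -0.12). Mpo was found in 38 members (58.5%), against 14.6% of other Ptprc and 9.26% of B-lineage barcodes, and after thinning in 41.8%, 7.79% and 4.57%.

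Of 8 monocyte and macrophage markers past the floor, 4 were called lower, among them C1qa, C1qb and C1qc at 0. Of 9 B cell markers 7 were called lower, with Ms4a1 and Igll1 at 0. Of plasmacytoid dendritic cell markers 3 of 3 were called lower, and of skeletal markers 5 of 6, at 414 CPM in sum and 63.7 CPM without the 8 members. Of 7 erythroid markers none was called; their sum was 22454 CPM, and 1377 CPM without those 8, against 35373 CPM in the other Ptprc barcodes. The only T and NK cell marker past the floor was Nkg7, a granule membrane gene of cytotoxic cells, which was found in 41 members (347 against 119 CPM, log2 ratio 1.54), while Cd3e, Cd3g, Trbc2, Ncr1 and Klrd1 were at 0. Of megakaryocyte markers Itga2b, the CD41 integrin chain, was called higher and found in 54 members (218 against 3.01 CPM), Pf4 was called lower, and Ppbp, Gp1bb and Gp9 were at 0. Of 4 stem and progenitor markers past the floor Kit and Adgrg1 were called higher, Cd34 and Sox4 were not (1.67 and 0.04), and Flt3 was at 0. What these transcripts of other cells contribute to the comparison was not tested.

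Of the eosinophil list, 3 genes past the floor were called higher: Alox15, found in 34 members, and the granule genes Prg2 and Prg3. Of the 523 Prg2 UMIs, 517 lay in 1 member. That barcode, with 10181 UMIs in all, also had 13 UMIs of Prg3, 1 of Epx, 30 of Mpo and 8 of Cebpe, a transcription factor of late granulocytes. It met the rule with 14 UMIs of Cpa3, 2 of Ms4a2 and 6 of Mcpt8, and held 1 of Prss34, 3 of Gata2, 1 of Hdc and none of Fcer1a or Cd200r3. Ear1, Ear6 and the interleukin-5 receptor gene Il5ra were at 0 in all members, and Siglecf and Ccr3 had 6 and 1 UMIs.

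Several of these genes stand in clusters of related genes. The clusters were laid out after the values were seen, on the GENCODE M21 annotation of GRCm38. In the chymase and granzyme cluster, chr14:55941451-56262260, 5 of 15 genes had a UMI. Between Mcpt4 and Gzme, which were at 0, Mcpt8 had 8235 UMIs and its neighbour Ctsg had 1642. At the end of the cluster Gzmc had 540 UMIs in 32 members and Gzmb 846 in 46, and 28 members held both granzymes. The 5 genes between Ctsg and Gzmc (Gzme, Gzmd, Gzmg, Gzmn and Gzmf) were at 0. Reads that fit near-identical members of such a family equally well are left out by this kind of counting, so a 0 is uncertain for genes with a close copy.

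Prss34 opens the tryptase cluster at chr17:25298394-25369098. Its neighbour Prss28 had 12 UMIs in 8 members against 1 UMI in all other Ptprc barcodes, Prss29 had 1, and the mast cell tryptases Tpsab1 and Tpsb2 had 0. In the type 2 cytokine cluster, chr11:53602982-53725106, Il4 had 51 UMIs and Il13 had 70, Il5 had 0, and Rad50, a DNA repair gene that lies between them, had 47 UMIs at a ratio close to that of the other barcodes (65.3 against 44.3 CPM). In the Cd200 receptor cluster, chr16:44765736-44981380, Cd200r3 had 385 UMIs, Cd200r4 had 40, Cd200r1 had 37 and Cd200r2 had 0. All 3 expressed receptors of this cluster were called higher than in the other Ptprc barcodes.

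**Figure D3:**
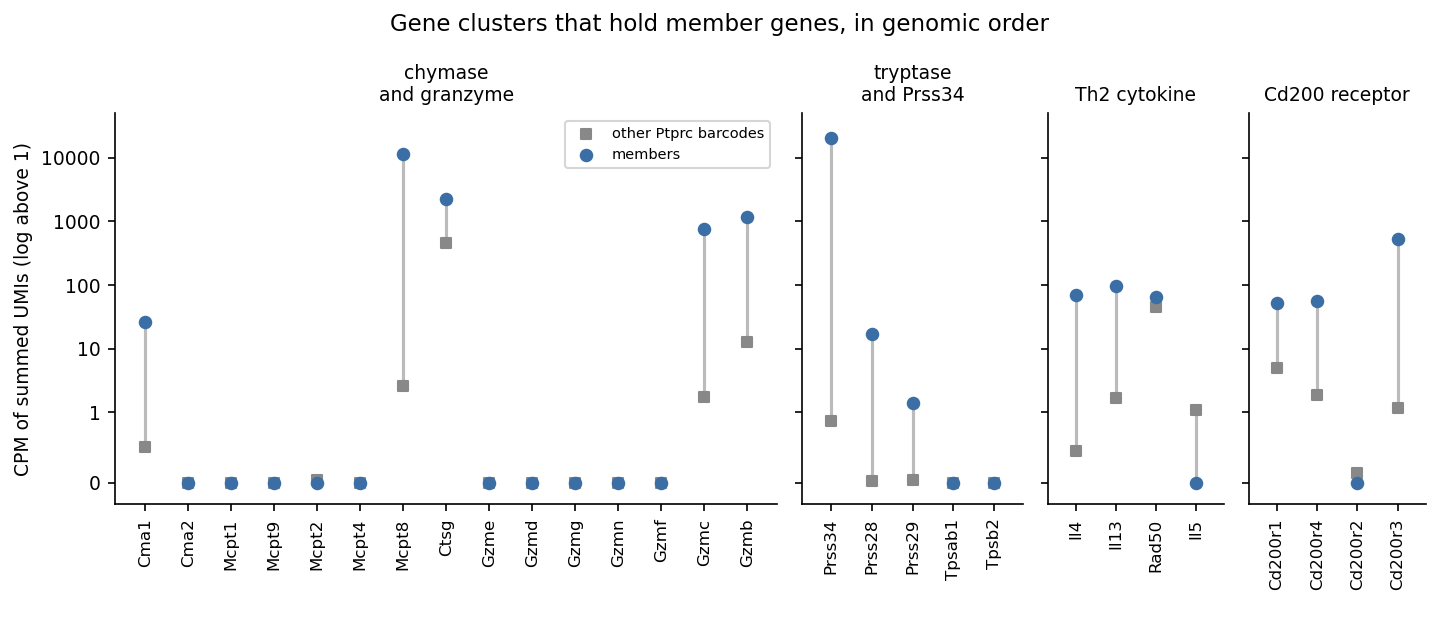
Summed CPM (log axis) of each gene in 4 clusters, in genomic order, for the members (blue circles) and the other Ptprc barcodes (grey squares). In the chymase and granzyme cluster only Cma1, Mcpt8, Ctsg, Gzmc and Gzmb have a value in the members, and Mcpt4, Tpsab1 and Tpsb2 have none.

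The IgE receptor is built from an alpha chain (Fcer1a), a beta chain (Ms4a2) and a gamma chain (Fcer1g) that other leukocyte receptors share. Fcer1a was found in 38 members (median 1 UMI, highest 31), and in 0.119% of other Ptprc and 0.0286% of B-lineage barcodes. Fcer1g was found in all 65 members and stood at 1298 against 863 CPM, a log2 ratio of 0.59 that passed no limit. Both Fcer1a and Ms4a2 were found in 36 members and neither in 6. Of 14 genes of the receptor and its first signalling steps that passed the CPM floor, 4 were called higher: Ms4a2, which chose members, Fcer1a and the adaptors Lat (3.21) and Lat2 (2.80). The kinases Lyn, Syk and Btk had log2 ratios of -1.61, -0.82 and -0.15, and Fyn 0.89.

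Granule proteases are stored bound to serglycin. Of 7 granule protease genes and serglycin past the floor, 6 were called higher, of which Mcpt8, Prss34 and Cpa3 chose the members and Cma1 had all of its UMIs in 1 of them, which leaves Gzmb and Ctsg. Srgn, the gene of this proteoglycan, was found in all 65 members at 4883 against 1676 CPM (1.54) and passed no limit. Gzmb stood at 1176 against 12.5 CPM, and was found in 70.8% of members, 1.74% of other Ptprc and 0.343% of B-lineage barcodes. Its highest value in a member was 119 UMIs. Of 6 protease inhibitors past the floor, Cst7, which encodes cystatin F, was called higher and found in 41 members (2.54). Serpinb2 was also called higher (4.65), from 63 UMIs in 10 members, and Cst3, Cstb and Serpinb1a had ratios just below 0 (-0.33, -0.48 and -0.71).

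Of 3 histamine genes past the floor, all 3 were called higher. Hdc, which makes histamine from histidine, was found in 63 members at 1573 against 313 CPM, but also in 45.7% of the other Ptprc barcodes and in 7.57% of the B lineage. Slc18a2, the transporter that loads amines into granules, set the groups further apart, with 630 against 2.54 CPM and a UMI in 56 members. Slc22a3, a transporter that carries histamine across the cell membrane, was found in 20 (log2 ratio 6.20). The histamine-degrading enzymes were near or at 0, with 1 UMI of Hnmt and none of Aoc1.

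Of 7 eicosanoid genes past the floor, Alox15 and Alox5, the first enzyme of leukotriene synthesis (2.50), were called higher. Its partner Alox5ap was found in 64 members (1076 against 585 CPM, 0.88), and the leukotriene C4 synthase gene Ltc4s had 6 UMIs. The prostaglandin enzymes Ptgs1 and Ptgs2 had log2 ratios of -1.12 and -1.21, and Hpgds had 2 UMIs.

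Of 18 cytokine and chemokine genes past the floor, 9 were called higher and 2 lower, Ccl2 and Ccl5. Il4 was found in 23 members (35.4%), 0.0743% of other Ptprc and 0.0286% of B-lineage barcodes, with at most 10 UMIs in a member. Il13 was found in 18 members, and of its 70 UMIs 37 lay in 1 of them. Both were found in 8 members, Il4 alone in 15, Il13 alone in 10 and neither in 32. At a depth thinned to 1500 UMIs the shares were 11.4% for Il4 and 10.5% for Il13, so that absence of a UMI does not mark a cell that lacks the transcript. Il6 was found in 34 members (log2 ratio 4.12), the growth factor gene Hgf in 49 (5.78), Csf1 in 30 (2.09) and Areg in 8 (3.16), with 58 of its 86 UMIs in 1 of them. The chemokines Ccl3, Ccl4 and Ccl9 stood at 1869, 1847 and 666 CPM against 152, 103 and 86.2, and were found in 54, 44 and 44 members. Il1b and Osm passed no limit (1.64 and 1.22), nor did Tnf and Cxcl2 (-1.67 and -1.73), and Il3, Il5, Il9, Csf2 and Ccl24 were at 0.

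Of 20 cytokine receptor genes past the floor, 7 were called higher. The interleukin-3 receptor is made of an alpha chain (Il3ra, 40 members) and a beta chain, of which the mouse has 2 near-identical genes whose reads cannot always be told apart, Csf2rb (61 members, log2 ratio 3.34) and Csf2rb2 (57 members, 4.85). Il1rl1, the receptor of the alarmin IL-33, was found in 34 members at 103 against 1.91 CPM. The receptor chains of interleukin-18, Il18r1 and Il18rap, were found in 28 and 51 members (3.09 and 2.32). The receptor of the alarmin TSLP, Crlf2, was found in 53 members but passed no limit (1.27). Il6ra and the G-CSF receptor gene Csf3r were called lower (-2.39 and -3.45), and Il5ra, Il13ra1 and Flt3 were at 0.

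Of 13 chemoattractant and lipid mediator receptors past the floor, C3ar1, for the complement fragment C3a (4.09), and the adenosine receptor gene Adora2b (3.09) were called higher, and C5ar1, Fpr1 and Fpr2, receptors by which neutrophils follow complement and bacterial peptides, were called lower. Ptgdr2, the prostaglandin D2 receptor CRTH2, was at 0. Of 23 surface and adhesion receptor genes, 6 were called higher: the 3 Cd200 receptors, Cd244 (3.60), Itga2 and Cd63, a granule membrane protein that reaches the surface when granules are released (1854 against 317 CPM, 64 members). Pilra, Cd300lf and Itgam, the CD11b chain, were called lower.

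Of 22 transcription factors past the floor, Gata2, Ikzf2 (4.82, 53 members), Cebpa (3.86, 39 members) and Tal1 (2.38, 18 members) were called higher, and Irf8 and Bach2, factors of monocyte and lymphoid cells, were called lower (-3.70 and -2.35). Gata1 had 14 UMIs in 11 members and lay just under the CPM floor. Runx1, Lmo4 and Stat5a had log2 ratios of 1.87, 1.65 and 1.54. No gene was called among 12 S phase genes, 10 G2/M genes and 9 immediate-early and heat-shock genes past the floor; their median log2 ratios were -0.20, -0.00 and -0.62.

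**Figure D4:**
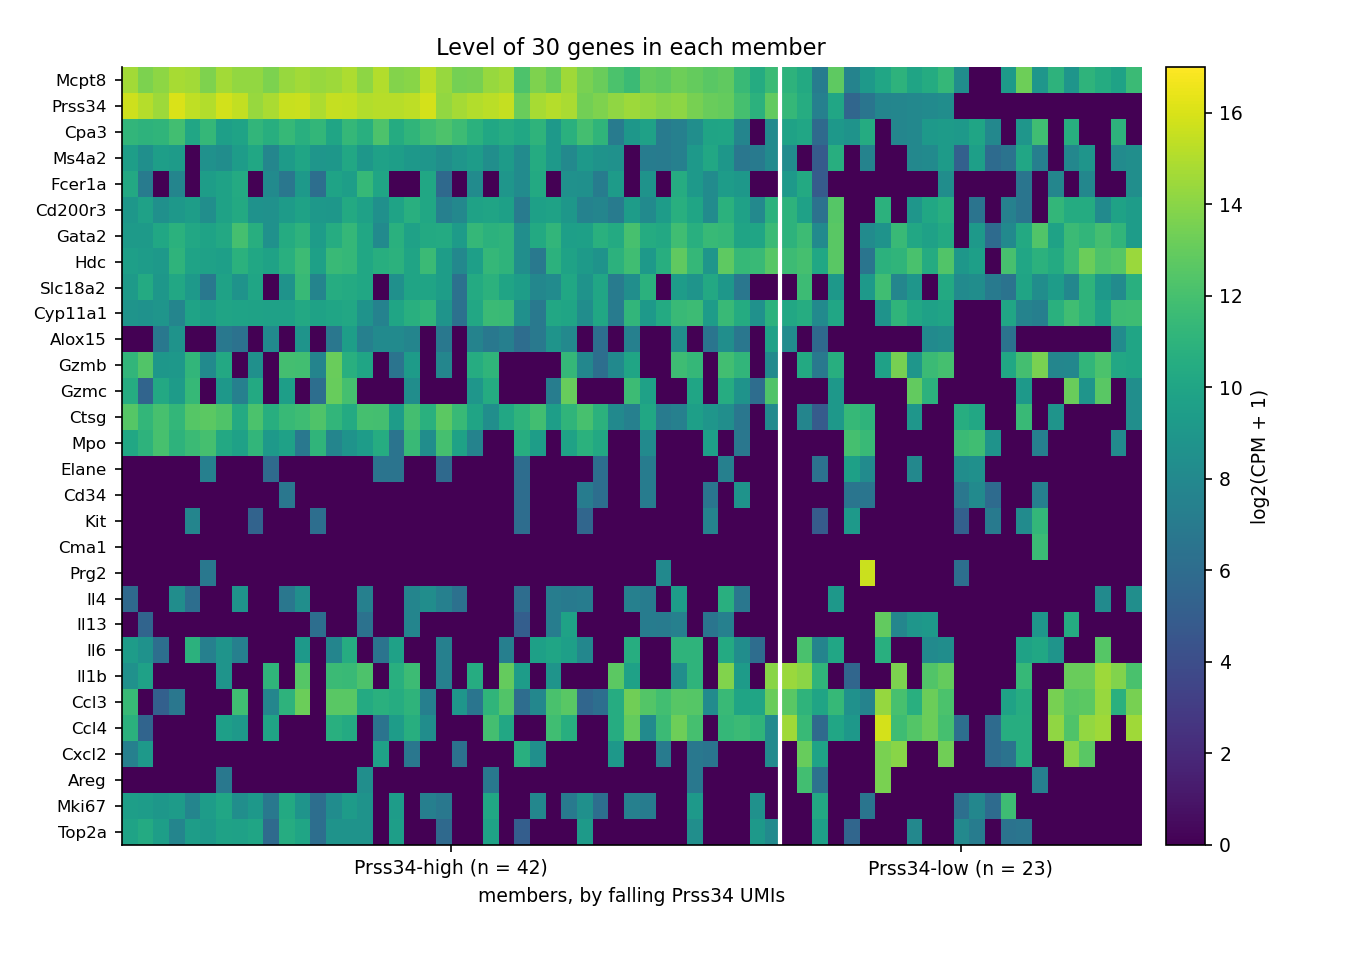
Level of 30 genes (rows) in each of the 65 members (columns), as log2(CPM + 1), with members sorted by Prss34 UMIs and a line between the 42 Prss34-high and 23 Prss34-low members. Gata2, Hdc and Cd200r3 have a value in 63, 63 and 59 columns, Cma1 in 1 and Prg2 in 4.

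Kit, the gene of the receptor for stem cell factor, was found in 12 of 65 members (18.5%, interval 9.92 to 30.03%). It was found in 6.21% of other Ptprc barcodes and in 2.63% of B-lineage barcodes, whose depths were lower. After thinning to 1500 UMIs the shares were 4.6% of members, 1.21% of other Ptprc and 0.690% of B-lineage barcodes. The 83 barcodes that held both Kit and Cd34 gave 17.6%, but they were chosen by a Kit UMI. Their share can be set only beside that of the 12 members with Kit, which was 28.8% after thinning. The members with Kit were deeper, with a median of 18719 UMIs against 8855 without. Their Kit counts were 15, 12, 3 in 2 members, 2 in 3 and 1 in 5, so that 2 of the 12 held most of the 44 Kit UMIs.

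The 12 differed in their other transcripts. In 6 of them Prss34 was high, between 94 and 616 UMIs, with 66 to 484 of Mcpt8. The member with 15 Kit UMIs, of 6224 in all, was the one that held the 19 Cma1 UMIs, with 22 of Cpa3, 34 of Gata2, 75 of Gzmb, 13 of Il1rl1, 12 of Hdc and 2 of Mitf, but only 3 of Mcpt8 and none of Prss34, Fcer1a, Cd200r3, Mcpt4, Tpsb2 or Tpsab1. The member with 12 Kit UMIs had 84 of Mpo and 17 of Elane but none of Gata2 or Hdc, and 4 of Mcpt8. Another, with 1 Kit UMI, had 87 of Mpo, 9 of Elane and 3 of Cd34, with 16 of Cpa3, 9 of Mcpt8, 14 of Hdc and none of Gata2.

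Of 3233 genes with at least 30 UMIs in the members, 39 (1.21%) were called higher and 60 (1.86%) lower in members with Kit than without, where a call needs the whole counting interval beyond 2-fold. Among those in which no single barcode held over 30% of the UMIs of the higher group, 2 were higher: Phgdh, the first enzyme of serine synthesis (2.34), and Ramp1, a receptor subunit for the peptide CGRP (1.82). The lowest were Peg10 (-4.58), Ccl4 (-4.27), Kcnj2 (-4.08), Aqp9 (-3.66), Epm2aip1 (-3.43), Ccl3 (-3.28), Arrdc4 (-3.02), Gm12840 (-2.76), Slpi (-2.75) and Ccl9 (-2.74). Ccl3 stood at 271 CPM in members with Kit and 2632 CPM without, with medians of 23.4 and 2206 CPM per member, and the groups overlapped. Of the basophil list, Fcer1a, Cd200r3, Hdc, Cyp11a1 and Prss34 were called lower (-2.10, -1.93, -1.57, -1.45 and -1.44). Of markers of other cell types, 4 of 8 neutrophil markers were called higher and 6 of 6 erythroid markers lower. Without the 8 members that held UMIs of other cell types, 9 genes were called higher, of which 5 were among the 39, and 68 lower, of which 43 were among the 60.

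The members split by Prss34 with a gap: none held between 10 and 27 UMIs. The 42 above the gap were called Prss34-high and the 23 below it Prss34-low, a division drawn after the values were seen. For this comparison, 36 Prss34-high members were set against 16 Prss34-low members. The high class was taken without 6 members that held UMIs of other cell types as counted above. The low class was taken without the 6 with Kit and 1 that held globin UMIs. Since 5 of the 36 had a Kit UMI, Kit was treated unlike in the 2 classes. Ccl4 and Ccl3 were lower in members with Kit than without (-4.27 and -3.28). What the uneven choice adds to the values below was not tested. B-lineage UMIs also remained, among them 16 of Cd79b in 1 low member. Depth moved with the split, at a median of 9494.5 UMIs in the high and 4232 in the low members, and 14 of the 16 were under 5000 UMIs against 1 of the 36. Its part in the values below was not tested.

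Gata2 did not separate the 2 classes. It was found in all 36 and all 16 members, at 1518 CPM in the high and 1508 CPM in the low members, with ranges of 281 to 4235 and 295 to 6529 CPM. Hdc stood at 1480 and 3346 CPM, with medians of 1365 and 3636 CPM per member and overlapping ranges. Cd200r3 was found in 36 of 36 and 14 of 16. Fcer1a was found in 27 of 36 and 6 of 16 members (after thinning 42.7 and 19.8%). Mcpt8, which with Prss34 chose most members, ranged from 11 to 484 UMIs in the high and from 0 to 13 in the low members.

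Of 2386 genes compared, 42 (1.76%) were called higher and 42 (1.76%) lower in the Prss34-low members. Among those in which no single barcode held over 30% of the UMIs of the higher group, the 10 with the highest ratio were Cxcl2 (log2 ratio 5.33), Cd7 (4.23), the antiproliferative gene Btg2 (2.70), Igsf6 (2.62), the histone demethylase gene Kdm6b (2.51), Vps37b (2.38), the phosphatase gene Dusp5 (2.24), Suco (2.12), Il1b (2.12) and Plek, the pleckstrin gene (2.10). Of 15 cytokine and chemokine genes compared, 7 were called higher and 0 lower. Ccl3 was found in 15 of 16 low members with a median of 5409 CPM, and in 29 of 36 high members with a median of 1641 CPM. Ccl4 had medians of 5306 and 280 CPM, Il1b of 6751 and 249 CPM and Ccl9 of 2133 and 147 CPM. The ranges of all 4 overlapped, since at least 1 low member had none of each. Cxcl2 was uneven, with a UMI in 6 of 16 low members, up to 72, and in 9 of 36 high members, up to 13. Il13 and Areg were also called, but 77.1% and 77.3% of their UMIs in the low members were in 1 barcode. Of transcription factors, Cebpb was called higher (1.32).

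Prss34 and Mcpt8 defined the split or moved with it (-6.82 and -3.92). By the same limit, the other 8 of the 10 genes with the lowest ratio in the Prss34-low members were the histone genes Hist1h2ae, Hist1h2ab, Hist1h2ap and Hist1h1b, which belong to a family of near-identical copies, Ms4a3, a gene of granulocyte and monocyte progenitors (-3.96), Mrps14 (-3.89), Abcd3 (-3.76) and Top2a (-3.38). Ctsg was found in 36 of 36 high members, with a median of 22.5 UMIs, and in 7 of 16 low members, with a highest value of 26 UMIs (-2.31). Mki67 (-2.45), Clec12a (-2.28) and Cpa3 (-1.45) were also called lower.

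**Figure D5:**
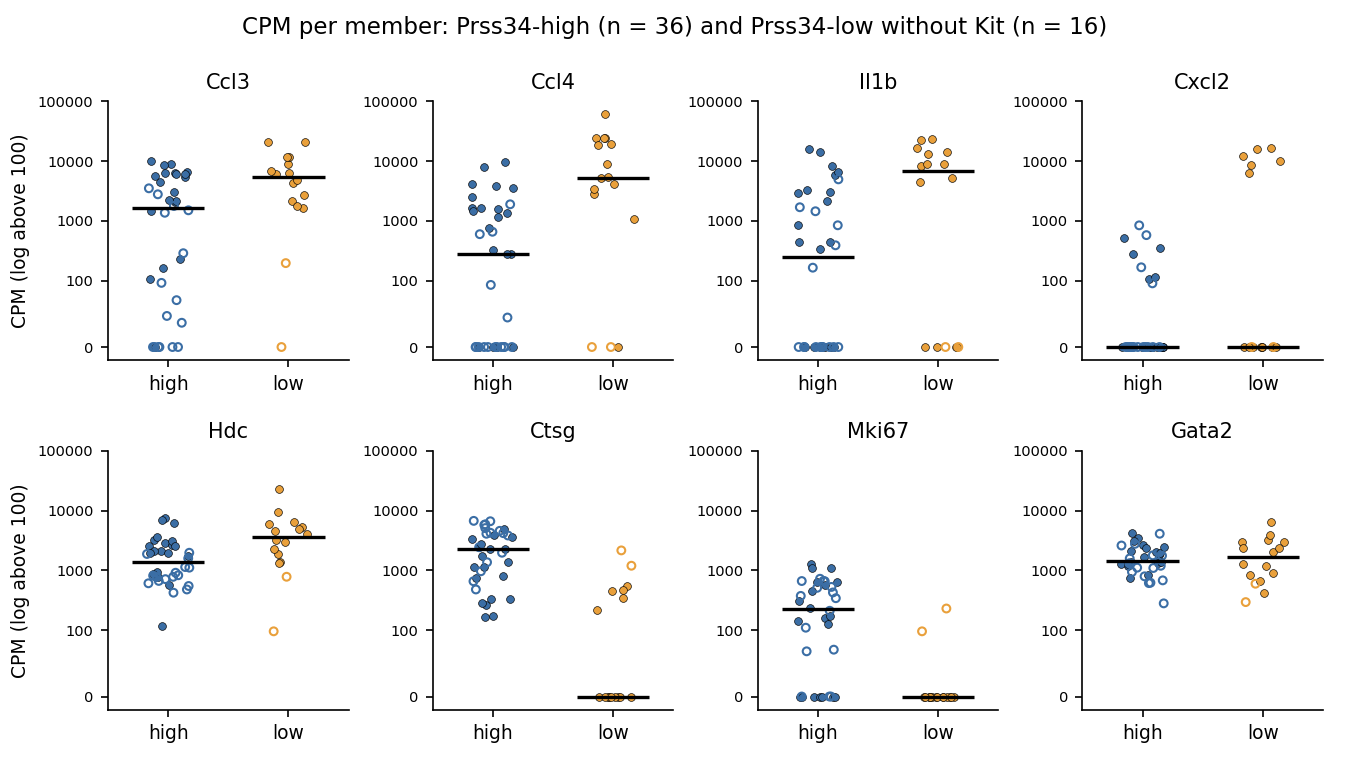
CPM per member (vertical axis, symmetric log) of Ccl3, Ccl4, Il1b, Cxcl2, Hdc, Ctsg, Mki67 and Gata2 in 36 Prss34-high members and 16 Prss34-low members without Kit; bars are medians and open symbols are barcodes over 10000 UMIs. Ccl3, Ccl4 and Il1b have the higher median in the low members, Ctsg and Mki67 in the high members, and the Gata2 points overlap.

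Of the 16 Prss34-low members, 2 were over 10000 UMIs, the eosinophil granule barcode and another of 21722 UMIs. The latter held 9 UMIs of Cd79a, 77 of Mpo, 8 of Elane and 6 of Cd34. The 2 thus differed from the other low members in more than depth. Without them 93 genes were called higher, 38 of them among the 42, and 87 lower, 33 of them among the 42. Without cycling members in either class 37 were called higher, 28 of them among the 42, and 14 lower, 10 of them among the 42. In that last comparison Ccl4 (2.97), Cxcl2 (5.12), Il1b (1.58) and Kdm6b (3.46) kept intervals beyond 2-fold, whereas Ccl3 (1.19, interval 0.98 to 1.40), Ccl9 (0.83), Igsf6 (1.39) and Suco (1.91) did not. Ctsg (-1.71) and Ms4a3 (-3.85) kept them on the lower side, and Clec12a (-1.56) and Cpa3 (-1.31) did not. Nor did Top2a (0.90, interval -5.39 to 7.20) and Mki67 (-1.42, interval -6.98 to 1.74). Since both helped define the cycling members left out, their loss follows from that choice.

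Cycling cells were counted as members with UMIs of at least 2 of Mki67, Top2a and Birc5, which are made in dividing cells. They were 28 of 65 members (43.1%, interval 30.8 to 55.96%), against 22.4% of other Ptprc barcodes, 19.5% of B-lineage barcodes and 51.8% of the Kit and Cd34 barcodes. Thinned to 1500 UMIs the shares were 17.4% (interval 8.76 to 28.3%), 11.9%, 13.5% and 11.9%, and the interval of the members held the other 3. Among the Prss34-high members 21 of 36 were cycling and among the Prss34-low 1 of 16, and after thinning 26.1% and 0.75% (intervals 12.1 to 42.2% and 0 to 20.6%). The cycling members were deeper, at a median of 14454 UMIs against 6118.

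Of the 3233 genes, 83 (2.57%) were called higher and 70 (2.17%) lower in cycling than in other members. By the same limit on single barcodes, those highest were Hist1h2ab, Hist1h1b, Birc5, Cdca8, Spc24, Top2a, Ccnb2, Kif11, Prc1 and Mki67 (log2 ratios 4.73 to 6.36). All 9 G2/M genes compared were called higher, of which 3 defined the class, and 2 of 10 S phase genes, Rrm1 and Rrm2. Among genes in which no single barcode held over 30% of the UMIs of the higher group, the 10 lowest were Cxcl2 (-3.50), Ccl4 (-2.91), the mast cell and basophil receptor gene Milr1 (-2.81), Ccl9 (-2.61), Aqp9 (-2.51), Cd7 (-2.34), Gm20186 (-2.32), Trim12c (-2.31), Btg2 (-2.17) and Lyst (-1.91). Of 16 cytokine and chemokine genes compared, 8 were called lower and 0 higher. Among the 8, Ccl3 stood at 1104 CPM in cycling and 3083 CPM in other members. Of 11 basophil markers compared none was called. Markers of other cell types also moved with this division, with 6 of 8 neutrophil and 4 of 6 erythroid markers called higher and 4 of 4 skeletal markers called lower. Without the 8 members that held UMIs of other cell types 63 genes were called higher (54 among the 83) and 45 lower (32 among the 70). Within the Prss34-high members 44 were higher (40 among the 83) and 10 lower (7 among the 70).

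The 5 members that met the rule by Cpa3 and Ms4a2 alone held 21722, 16494, 6224, 4294 and 3391 UMIs. Prss34 was at 0 in all 5, and Mcpt8 was at 0, 0, 3, 2 and 3 UMIs. Their Cpa3 counts were 22, 4, 22, 7 and 7, and Ms4a2 stood at 17 in the deepest and 1 in each of the others. The third of them was the member with Cma1.

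The transgenes of the study gave few UMIs in these cells. WPRE, a viral element that follows tdTomato in the reporter, was found in 43 of 65 members (66.2%), 30.9% of other Ptprc and 20.1% of B-lineage barcodes, and no member had over 6 UMIs. The tdTomato sequence itself was found in 3 members with 1 UMI each, GFP in 1 and Cre in none of the 65. A count of 0 has an exact upper bound of 5.52% for members with a Cre UMI and does not limit the share of cells that express it. Of the study's genes of interest, Mmp14 had 5 UMIs in 3 members and Pth1r, the receptor of parathyroid hormone, had 0. Set against the mouse UMIs of each group, WPRE stood at 133 CPM in the members, 71.3 in the other Ptprc and 55.5 in the B-lineage barcodes. Whether these UMIs come from the members themselves was not tested.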

How the data were processed

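The deposited values are raw counts of UMIs per gene and barcode, which the authors made with Cell Ranger 3.1.0 from an alignment to mm10 with the transgene sequences and analysed in Seurat 3. The release of their gene annotation is not given in the sources used. Gene positions are from GENCODE M21, which held 30934 of 31053 gene identifiers. The 8 labelled samples share 1 matrix with no map to barcodes, so no test was possible.

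UMIs were summed over a group and divided by all UMIs of the group (CPM). Ratios have exact conditional 95% intervals and shares exact Clopper-Pearson intervals. Between members and other Ptprc barcodes a gene was called at 20 CPM in either group, a ratio of 4 and an interval beyond 2, and a gene at 0 was set to 3 UMIs. Within the members a gene needed 30 UMIs and an interval beyond 2-fold. Named outside the lists were the 20 highest and 10 lowest genes of the main comparison and, within the members, up to 10 each way in which no barcode held over 30% of the UMIs of the higher group. Thinning drew 1500 UMIs without replacement 100 times. Scrublet (scanpy 1.11.5) assumed 6% doublets and called doublets were kept in. B-lineage barcodes had at least 5 UMIs of Cd79a and Cd79b. Doubted members had at least 100 UMIs of 5 neutrophil genes, 100 of globins or 10 of skeletal genes. The members, the 26 lists and all comparisons were chosen with earlier results of these data known, and the Prss34 division, the gene clusters and the doubted members after seeing the values given here. Python 3.11.15, numpy 2.4.6, scipy 1.17.1 and pandas 2.3.3 were used. The calling was run on simulated counts drawn from the counting model that the intervals assume. Those counts had no spread between barcodes, so the run does not show how the calls hold up against such spread.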

Additional observations from a re-analysis of the deposited data

How the results depend on the processing

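The number of members lay between 50 and 79 under other gene floors (500 and 1600), a mitochondrial limit of 10%, thresholds of 3 and 20 UMIs for Mcpt8 and Prss34, and with called doublets or the 8 members holding UMIs of other cell types left out. The share with Kit was 17.5 to 24% under the same settings and 4.6% after thinning to 1500 UMIs. The 242 genes called higher became 412 at a floor of 5 CPM and 102 at 100 CPM, and lay between 221 and 295 otherwise. The 273 called lower became 92 at a floor of 100 CPM, 417 with each barcode weighing the same (252 shared) and 136 against barcodes with Kit or Cd34 only (96 shared), and lay between 223 and 381 otherwise. With each barcode weighing the same, the summed log2 ratio of protease inhibitors turned from -0.14 to 0.092 and that of S phase genes from -0.25 to 0.077. The cause was not tested. Of the other list ratios, that of G2/M genes (0.016) was -0.067 without called doublets and -0.048 when centred, and that of chemoattractant receptors (-0.042) was 0.052 without the 8 members. Most list ratios moved in value: 19 of 26 with each barcode weighing the same and 16 of 26 without the 8 members, against 7 without called doublets and 8 when centred. No paired analysis was possible because the barcodes carry no sample or replicate. With 65 barcodes in 1 pooled library, a gene at 0 has a 95% upper limit of 5.13 CPM, and the spread between mice is unknown.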
